A study of Homo sapiens with 9 samples.

Results

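The genes of the mitochondrial chromosome (MT) were described in A549 cells, an established human lung cancer line, after transfection with plasmids for long non-coding RNAs. The members were all rows of the deposited count table placed on MT, 37 of 58735 genes: 13 for mRNAs, 2 for rRNAs and 22 for tRNAs. The 9 RNA-seq libraries form 3 groups of 3. The group PC3 received a control plasmid, named PC3.1, PC3.2 and PC3.3 in the treatment labels of its libraries. The group L996 overexpressed LINC00996, and the group RP11 overexpressed AP001189.3. All groups share the cell line and the transfection, and no library of cells without a plasmid was analysed here. The model is thus a single line, and the labels do not say whether the replicates were separate cultures, so that p-values measure only the spread between these samples.

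LINC00996 had 5239, 4373 and 5952 counts in the L996 libraries and 4 to 9 in the others. AP001189.3 had 1660, 1931 and 2378 counts in the RP11 libraries and 0 to 2 in the others. Both checks matched the labels. Library totals ran from 15272450 to 18125447 counts. All 10 markers of the A549 line were at 10 CPM (counts relative to library size) or more in every library. Their summed level was 12441 to 12513 CPM in PC3, 17545 to 20080 CPM in L996 and 13684 to 14331 CPM in RP11. Against PC3, 4 of them were higher and 2 lower in L996, and 3 higher and 1 lower in RP11. Of all genes tested, 10.7% were higher and 11.6% lower in L996, and 11.4% higher and 8.49% lower in RP11. The markers lower in L996 were CDH1 and KRT19. CDH1 fell by 0.89 on the log2 scale (edgeR adjusted p = 2.92e-05), from a mean of 318 to 171 CPM. KRT19 fell by 0.40 (edgeR adjusted p = 0.0256). Of 10 markers of blood, endothelial and stromal cells, 8 stayed under 1 CPM everywhere, while PECAM1 and COL1A1 were detected, at 2.46 to 8.65 CPM and 11.9 to 22.5 CPM. PECAM1 fell by 1.42 on the log2 scale in L996 (edgeR adjusted p = 0.000284) and by 0.80 in RP11 (edgeR adjusted p = 0.000703) against PC3. COL1A1 fell by 0.62 in L996 (edgeR adjusted p = 0.00635), and RP11 gave -0.10 (edgeR adjusted p = 0.552). The levels of these 10 markers of other cells summed to 27.9 to 32.5 CPM in PC3, 15.7 to 18.1 CPM in L996 and 22.8 to 27.2 CPM in RP11. The part of either marker list in the results on MT genes was not tested. L996 replicate 1 stood apart, with a chi-square value per gene of 21.6 and 32.4 against the other L996 replicates, while other pairs within a group gave 2.24 to 7.11. Over MT genes alone, these L996 pairs gave 286 and 240, and the other pairs 21.2 to 179. For MT genes, PC3 replicates 1 and 3 (179) and RP11 replicates 1 and 3 (106) thus also differed strongly. The relation of gene level to GC content also differed. Spearman's rho across genes was 0.42 in L996 replicate 1 and -0.24 and -0.42 in the other L996 replicates, -0.27 to -0.01 in PC3 and 0.21 to 0.36 in RP11. The part of GC content in the results was not tested beyond a fit with a GC offset, which is given where it ends a call.

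The mitochondrial chromosome is a small circle of double-stranded DNA whose strands are transcribed almost from end to end. The long transcripts are cut into single RNAs mostly at the tRNAs that lie between the other genes. The mRNAs encode subunits of the respiratory chain and of ATP synthase, and the rRNAs and tRNAs serve the translation of these mRNAs inside the organelle. Most of the mRNAs receive a short poly(A) tail, while mature tRNAs do not, and mRNA had been purified on poly-T beads for these libraries. Levels of tRNA genes are therefore levels of reads assigned to a tRNA gene after that selection, and they do not measure the pool of mature tRNA.

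On the annotation that matches the count table (GENCODE 29, GRCh38), 28 of the MT genes lie on the plus strand and 9 on the minus strand. Of the 36 pairs of neighbours, 20 touch with no base between them and 5 share bases. The tRNA genes are 59 to 75 bases long. Whether counting used strand, and how reads over more than 1 gene were treated, is not given in the sources used here. Counts of touching, overlapping or opposite genes are uncertain for that reason.

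The members on which the results turn are shown by sequence. MT-TH, MT-TS2 and MT-TL2, the genes for the tRNAs of histidine, of serine (AGY codons) and of leucine (CUN codons), form an unbroken row between MT-ND4 and MT-ND5. They lie on the plus strand at chrM:12138-12206, chrM:12207-12265 and chrM:12266-12336 of GRCh38, and had almost no counts in PC3. MT-TC (cysteine) and MT-TY (tyrosine) lie on the minus strand at chrM:5761-5826 and chrM:5826-5891 and share 1 base. MT-TP (proline) lies on the minus strand at chrM:15956-16023. Sequences are read 5′ to 3′ on the strand of the gene, as DNA, and capitals mark the anticodon.

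MT-TH: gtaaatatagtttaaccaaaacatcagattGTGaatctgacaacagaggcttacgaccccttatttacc

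MT-TS2: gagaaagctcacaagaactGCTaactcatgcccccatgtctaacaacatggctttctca

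MT-TL2: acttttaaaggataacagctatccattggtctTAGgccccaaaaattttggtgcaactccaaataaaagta

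MT-TC: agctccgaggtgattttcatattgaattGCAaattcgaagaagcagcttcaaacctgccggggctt

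MT-TY: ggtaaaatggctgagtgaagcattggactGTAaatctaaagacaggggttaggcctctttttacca

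MT-TP: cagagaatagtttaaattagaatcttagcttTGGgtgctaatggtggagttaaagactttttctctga

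MT-ATP8, MT-ATP6 and MT-CO3 follow each other on the plus strand without a tRNA between them. The last 46 bases of MT-ATP8 are also the first of MT-ATP6, at chrM:8527-8572, and capitals mark the start codon of MT-ATP6 there.

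MT-ATP8 and MT-ATP6: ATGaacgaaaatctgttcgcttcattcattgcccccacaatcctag

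MT-ATP6 and MT-CO3 share a single base, shown in capitals in the stretch of 60 bases at chrM:9178-9237.

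MT-ATP6 and MT-CO3: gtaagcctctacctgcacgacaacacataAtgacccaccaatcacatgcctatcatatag

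The first question was how much of each library lay on the chromosome. MT genes took 5.32%, 5.66% and 5.26% of the counts in PC3, 6.68%, 7.07% and 7.18% in L996, and 5.32%, 5.37% and 5.52% in RP11. Each L996 library was above every library of the other groups. The mean was 6.98% ± 0.261 (SD, n = 3) in L996 against 5.42% ± 0.215 (SD, n = 3) in PC3, a difference of 1.56 percentage points (two-sided exact permutation test, p = 0.1). With 3 against 3 libraries, 0.1 is the smallest p possible. RP11 stood at 5.40% ± 0.101 (SD, n = 3), with all 3 libraries inside the range of PC3 (exact permutation p = 0.9), and 1.58 points below L996 (exact permutation p = 0.1). In such bulk libraries, more MT RNA per cell, fewer counts from other RNA and a change in only some of the cells cannot be told apart.

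By class, 1.48 of the 1.56 points between L996 and PC3 lay in the mRNAs. They took 4.36%, 4.69% and 4.39% of library counts in PC3, 5.81%, 5.99% and 6.09% in L996, and 4.28%, 4.45% and 4.58% in RP11. The rRNAs took 0.847% to 0.943% in PC3, 0.839% to 1.06% in L996 and 0.891% to 1.00% in RP11, ranges that overlap. The tRNA genes together took 0.0254% to 0.0346% in PC3, 0.0337% to 0.0364% in L996 and 0.0333% to 0.0389% in RP11. The plot of these shares places the L996 points apart from the rest in the panels for all genes and for mRNAs.

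**Figure D1:**
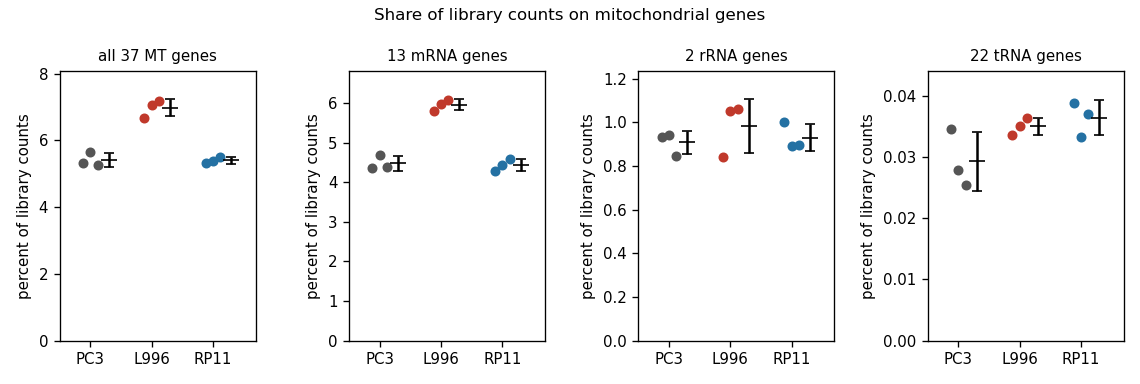
Percent of all library counts on MT genes (vertical axes, from 0) for all 37 genes, the 13 mRNA, the 2 rRNA and the 22 tRNA genes, with 1 point per library and the mean ± SD of 3 libraries in black. In the panels for all genes and for mRNAs the 3 L996 libraries lie above the PC3 and RP11 libraries, with means of 6.98%, 5.42% and 5.40% for all genes, while the rRNA ranges overlap.

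Single genes were compared by edgeR's quasi-likelihood test on the 6 libraries of a comparison, and a gene was called at a Benjamini-Hochberg adjusted p under 0.05 over all genes tested. The 15 mRNA and rRNA genes passed the filter on low counts in every comparison. Between L996 and PC3, 9 of these 15 were higher in L996 and 0 lower. Over all 16097 genes tested, 22.3% were called, 10.7% higher and 11.6% lower. Of the 22 tRNA genes, 17 passed the filter, and 5 of those did so through the L996 libraries alone and had to differ for that reason, so no test is given for them. Of the other 12, 4 were higher and 1 was lower. The median log2 fold change was 0.38 over the 13 mRNA genes, against 0.01 over all genes tested. Over the 32 MT genes tested it was 0.44, a value that includes the 5 genes that had to be higher, and 0.36 over the 27 others. The CPM of the groups did not overlap for 9 of the 13 mRNA genes, as for 40.4% of all genes tested.

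Between RP11 and PC3, 2 mRNA genes were higher, 2 lower and both rRNA genes were not called. Over all classes, leaving out genes that passed the filter through 1 group only, 4 MT genes were higher and 3 lower, and with a gene-length offset 3 were higher and 7 lower. Over all 16023 genes tested, 19.8% were called, 11.4% higher and 8.49% lower. Of the 22 tRNA genes, 14 passed the filter, 2 of them through the RP11 libraries alone. Of the other 12, 2 were higher and 1 was lower. The median over the 29 MT genes tested was 0.02, and -0.02 over the 27 others. The CPM of the groups did not overlap for 3 of the 13 mRNA genes, as for 35.2% of all genes tested.

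Between L996 and RP11, 10 of 13 mRNA genes were higher in L996, 0 were lower and the rRNA genes were not called. Over all 16095 genes tested, 21.4% were called, 9.38% higher and 12.1% lower. Of the 17 tRNA genes that passed the filter, 1 did so through the L996 libraries alone. Of the other 16, 1 was higher and 0 were lower. The median was 0.35 over the 32 MT genes tested and over the 31 others. The CPM of the groups did not overlap for 12 of the 13 mRNA genes, as for 39.2% of all genes tested. Both comparisons with PC3 share the same 3 control libraries, so their values below stand side by side and are not independent of each other.

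**Figure D2:**
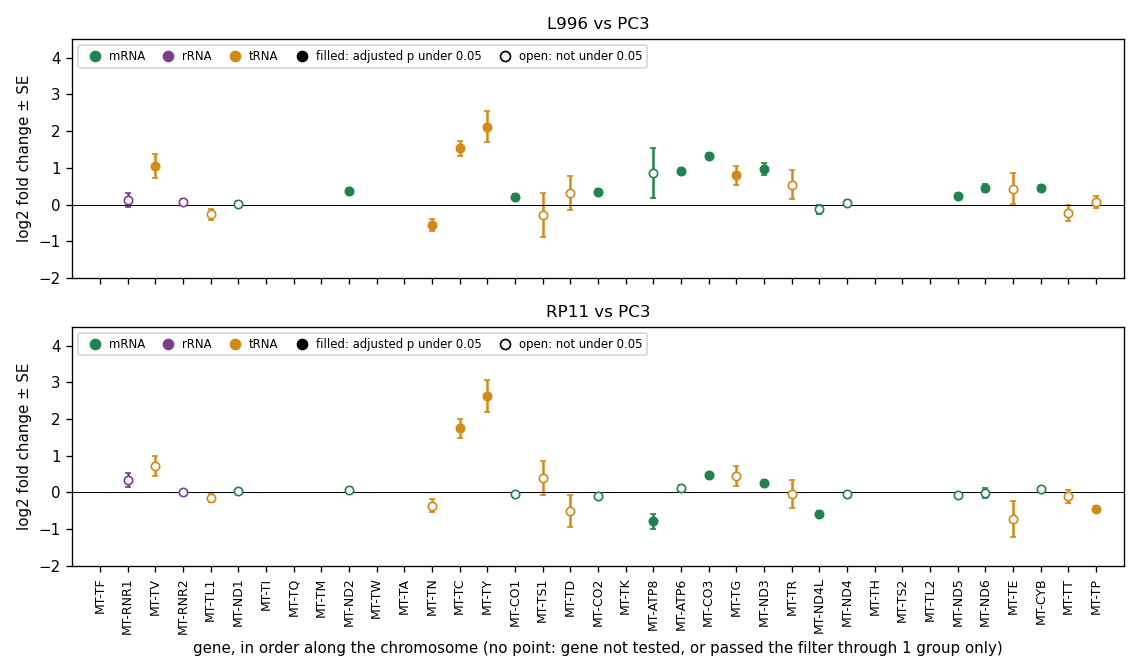
Log2 fold change ± standard error from edgeR for each MT gene that passed the filter through both groups (vertical axis), in chromosome order (horizontal axis), for L996 against PC3 above and RP11 against PC3 below, with filled points at an adjusted p under 0.05. MT-TY and MT-TC have the highest points in both panels (2.12 and 1.53 above, 2.63 and 1.74 below), and MT-CO3 leads the mRNA genes in both (1.33 and 0.48).

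Complex IV, cytochrome c oxidase, hands electrons to oxygen, and its core is formed by the products of MT-CO1, MT-CO2 and MT-CO3. MT-CO3 (ENSG00000198938, chrM:9207-9990) stood at 3144, 3063 and 2579 CPM in PC3, at 6847, 7753 and 7428 CPM in L996, and at 3989, 4153 and 4118 CPM in RP11. No group overlapped with another, and RP11 lay between PC3 and L996. The log2 fold change of L996 against PC3 was 1.33 (SE 0.09, edgeR adjusted p = 2.88e-06), a 2.51-fold level. For RP11 against PC3 it was 0.48 (SE 0.06, edgeR adjusted p = 9.15e-06), a 1.40-fold level, and for L996 against RP11 it was 0.84 (SE 0.08, edgeR adjusted p = 1.79e-05). All 3 calls held under each of the 15 alternatives tried.

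MT-CO2, which encodes the subunit that takes up electrons from cytochrome c, stood at 4639, 4908 and 4415 CPM in PC3, 6287, 5758 and 5865 CPM in L996, and 4097, 4322 and 4550 CPM in RP11. The L996 libraries were above all others. L996 exceeded PC3 by 0.36 on the log2 scale (SE 0.08, edgeR adjusted p = 0.00578) and RP11 by 0.46 (SE 0.07, edgeR adjusted p = 0.00115). RP11 against PC3 gave -0.11 (SE 0.05, edgeR adjusted p = 0.135).

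MT-CO1, the catalytic subunit, was the most abundant MT transcript per length in every group. Its level was 16758, 17973 and 17042 CPM in PC3, 20189, 19686 and 20140 CPM in L996, and 16415, 16539 and 17510 CPM in RP11. L996 was above every other library, by a log2 fold change of 0.21 against PC3 (SE 0.07, edgeR adjusted p = 0.0379) and 0.25 against RP11 (SE 0.06, edgeR adjusted p = 0.0196). The call against PC3 was lost under DESeq2 and 8 other alternatives, with an adjusted p of up to 0.273, and that against RP11 in 6 of 15, among them without each RP11 replicate. RP11 against PC3 gave -0.04 (edgeR adjusted p = 0.624).

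The genes of complex IV thus did not move by the same amount. The count of MT-CO3 for each count of MT-CO1 was 0.188, 0.170 and 0.151 in PC3, 0.339, 0.394 and 0.369 in L996, and 0.243, 0.251 and 0.235 in RP11, again without overlap between any groups (exact permutation p = 0.1 for each pair). Such a ratio within a library does not depend on the scaling of the library.

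ATP synthase makes ATP from the proton gradient, and MT-ATP6 and MT-ATP8 encode subunits of its membrane part. MT-ATP6 (chrM:8527-9207) stood at 2240, 2655 and 2711 CPM in PC3, 4455, 4957 and 4954 CPM in L996, and 2589, 2820 and 2929 CPM in RP11. The L996 libraries were far above the others, while the PC3 and RP11 libraries overlapped. The log2 fold change was 0.92 for L996 against PC3 (SE 0.09, edgeR adjusted p = 3.67e-05) and 0.78 for L996 against RP11 (SE 0.08, edgeR adjusted p = 5.4e-05). For RP11 against PC3 it was 0.13 (SE 0.07, edgeR adjusted p = 0.181), and this difference was called with a GC offset. The ratio of MT-CO3 to MT-ATP6 counts ranged from 0.951 to 1.40 in PC3, from 1.499 to 1.56 in L996 and from 1.41 to 1.54 in RP11.

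MT-ATP8 had far fewer counts, 173, 207 and 137 in PC3, 701, 144 and 158 in L996, and 95, 122 and 73 in RP11. The high value in L996 belonged to replicate 1 alone, the library that stood apart. L996 against PC3 gave a log2 fold change of 0.86 (SE 0.69, edgeR adjusted p = 0.435), and without L996 replicate 1 it was -0.22 (edgeR adjusted p = 0.361). RP11 fell by 0.79 against PC3 (SE 0.21, edgeR adjusted p = 0.0138), although the highest RP11 level (7.93 CPM) was just above the lowest of PC3 (7.88 CPM). The fall lost its call when all 9 libraries were fitted together (adjusted p = 0.581), without PC3 replicate 2 (0.0634) and without RP11 replicate 1 (0.0915).

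Complex I, NADH dehydrogenase, is the entry point for electrons from NADH, and 7 of the mRNA genes encode its membrane subunits. Between L996 and PC3, 4 of these 7 were called, all higher, beside 22.3% of all genes called and 10.7% higher. None of these calls held under every alternative. MT-ND3 (chrM:10059-10404) stood at 464, 473 and 385 CPM in PC3, 1123, 704 and 755 CPM in L996, and 545, 503 and 539 CPM in RP11. All groups were apart, and L996 replicate 1 was the highest library. The log2 fold change of L996 against PC3 was 0.96 (SE 0.16, edgeR adjusted p = 0.0012), and 0.73 without L996 replicate 1. Against RP11 it was 0.70 (SE 0.14, edgeR adjusted p = 0.00565). With a GC offset both calls were lost, at log2 fold changes of 1.05 (adjusted p = 0.079) and 0.68 (adjusted p = 0.184). RP11 against PC3 gave 0.26 (SE 0.07, edgeR adjusted p = 0.00755), which was lost in 3 alternatives, among them without RP11 replicate 1, with an adjusted p of up to 0.335.

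MT-ND2 stood at 2119, 2284 and 2075 CPM in PC3, 2689, 2792 and 2969 CPM in L996, and 2103, 2278 and 2381 CPM in RP11. L996 was above PC3 by 0.38 (SE 0.08, edgeR adjusted p = 0.00487) and above RP11 by 0.32 (SE 0.08, edgeR adjusted p = 0.0152) on the log2 scale, with no overlap. The first call was lost with a gene-length offset (adjusted p = 0.0559) and the second without L996 replicate 2, RP11 replicate 1 or RP11 replicate 2.

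MT-ND5 was at 1965 to 2118 CPM in PC3, 2311 to 2610 CPM in L996 and 1864 to 2049 CPM in RP11. Its log2 fold change in L996 was 0.25 against PC3 (SE 0.08, edgeR adjusted p = 0.0445) and 0.31 against RP11 (SE 0.08, edgeR adjusted p = 0.0164). The call against PC3 was lost in 7 of 15 alternatives, among them without each PC3 replicate and L996 replicates 2 and 3, and that against RP11 in 4. MT-ND6 is the only mRNA gene on the minus strand, where it lies opposite the long plus-strand transcript. It stood at 476, 570 and 660 CPM in PC3, 769, 751 and 801 CPM in L996, and 589, 593 and 505 CPM in RP11, with L996 above all others. L996 was higher by 0.44 than PC3 (SE 0.11, edgeR adjusted p = 0.0136) and by 0.46 than RP11 (SE 0.09, edgeR adjusted p = 0.00327) on the log2 scale. The call against PC3 was lost in 4 of 15 alternatives, among them without L996 replicate 1 (adjusted p = 0.0744).

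MT-ND4L shares 7 bases with MT-ND4, and both are read from a single mRNA. Its level was 1063, 1274 and 1340 CPM in PC3, 1271, 964 and 1136 CPM in L996, and 817, 805 and 845 CPM in RP11. The RP11 libraries were the lowest of all. RP11 fell by 0.58 against PC3 on the log2 scale (SE 0.07, edgeR adjusted p = 1.69e-05), a call that held under all 15 alternatives. L996 was above RP11 by 0.45 (SE 0.10, edgeR adjusted p = 0.00751, lost with a GC offset), and L996 against PC3 gave -0.13 (SE 0.12, edgeR adjusted p = 0.474).

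MT-ND4 itself did not pass the test in any comparison. It stood at 6350 to 7097 CPM in PC3, 6744 to 7230 CPM in L996 and 6289 to 6655 CPM in RP11. The ratio of MT-ND4L to MT-ND4 counts was 0.167, 0.179 and 0.202 in PC3, 0.188, 0.141 and 0.157 in L996, and 0.130, 0.122 and 0.127 in RP11. Each RP11 library thus lay below every PC3 and L996 library. MT-ND1 was also not called, at 1827 to 2056 CPM in PC3, 1917 to 2095 CPM in L996 and 2031 to 2043 CPM in RP11.

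Complex III passes electrons to cytochrome c, and its cytochrome b is the product of MT-CYB. MT-CYB stood at 2431, 2557 and 2132 CPM in PC3, 3027, 3336 and 3413 CPM in L996, and 2465, 2517 and 2660 CPM in RP11. L996 was above all other libraries, by 0.46 against PC3 (SE 0.09, edgeR adjusted p = 0.00346) and 0.35 against RP11 (SE 0.08, edgeR adjusted p = 0.00834) on the log2 scale. The call against RP11 was lost without RP11 replicate 1 or 2, with an adjusted p of up to 0.0539. RP11 against PC3 gave 0.10 (edgeR adjusted p = 0.219).

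The rRNAs of the small and large mitochondrial ribosomal subunits, MT-RNR1 and MT-RNR2, were not called in any comparison. MT-RNR2 stood at 8227, 8279 and 7687 CPM in PC3, 7502, 8825 and 9106 CPM in L996, and 8935, 7781 and 7776 CPM in RP11. MT-RNR1 stood at 1143, 1180 and 782 CPM in PC3, 821, 1354 and 1235 CPM in L996, and 1331, 1260 and 1347 CPM in RP11. The low values belonged to PC3 replicate 3 and L996 replicate 1. The log2 fold changes of the rRNAs lay between -0.21 and 0.34 in the 3 comparisons, with an edgeR adjusted p of 0.301 or more.

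Levels of different genes were compared per kilobase of gene. In PC3 the order began with MT-CO1 at 11192 ± 412 CPM per kilobase (SD, n = 3), MT-CO2 at 6804 ± 360.4 and MT-RNR2 at 5173 ± 210.2. MT-CO3, at 3735 ± 390.1, and MT-ATP6, at 3723 ± 378, held the places 6 and 7 there, and their order was within the spread. In L996 MT-CO3 was second, at 9366 ± 586, ahead of MT-CO2 at 8728 ± 409, again within the spread, and MT-ATP6 followed at 7032 ± 425. In RP11 MT-CO3 was at place 4, at 5213 ± 109.8, level with MT-RNR2 at 5237 ± 428. MT-ATP8 was the lowest mRNA in each group, at 28.9 to 90.3 CPM per kilobase on average.

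**Figure D3:**
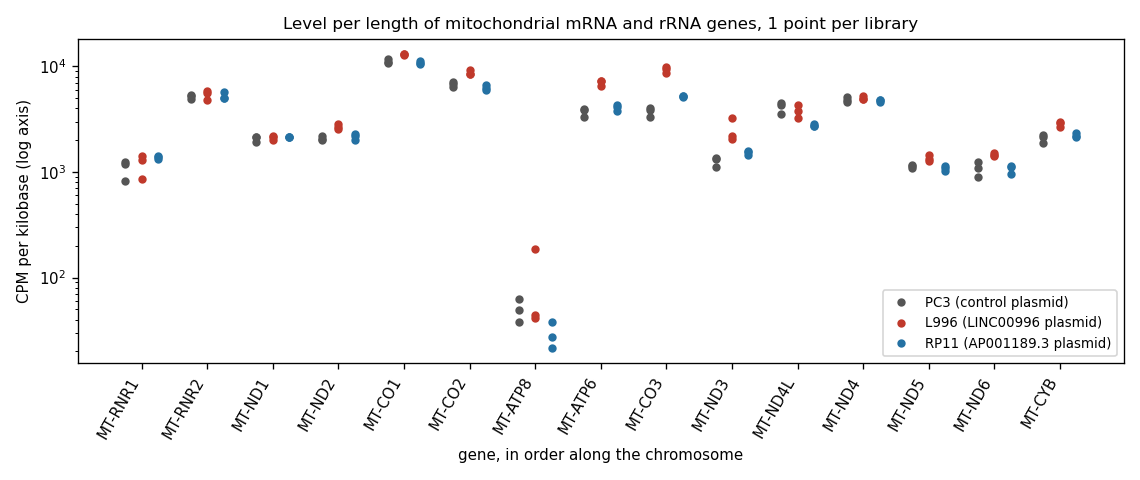
Level of the 13 mRNA and 2 rRNA genes in CPM per kilobase of gene on a log axis (vertical), in chromosome order (horizontal), with 1 point per library. MT-CO1 is the highest in every library, the red L996 points of MT-ATP6 and MT-CO3 lie above the other libraries, and for MT-ATP8 a single L996 library, at 38.4 CPM before division by length, lies apart from the others.

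Among the tRNA genes, the row of MT-TH, MT-TS2 and MT-TL2 had 0 to 8 counts per library in PC3. MT-TH had 8, 3 and 1 counts in PC3, 121, 43 and 69 in L996, and 47, 35 and 26 in RP11. MT-TS2 had 2, 1 and 0 counts in PC3, 36, 15 and 16 in L996, and 5, 4 and 4 in RP11. MT-TL2 had 2, 0 and 2 counts in PC3, 28, 16 and 20 in L996, and 21, 17 and 19 in RP11. All 3 genes were thus higher with either plasmid than in any PC3 library, and L996 and RP11 were apart for MT-TS2 but overlapped for MT-TH and MT-TL2.

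With so few counts, ratios were formed from the summed counts of a group over its scaled library sizes, with exact 95% intervals that cover counting error only. Since these genes passed the filter against PC3 only through the group where they were high, or not at all, the intervals give the precision of the counts and are not read as a test of the groups. For L996 against PC3 the ratio was 18.7 (10.5 to 36.6) for MT-TH, 21.5 (7.03 to 107) for MT-TS2 and 15.4 (5.72 to 58.1) for MT-TL2. For RP11 against PC3 it was 9.30 (5.11 to 18.6) for MT-TH, 4.48 (1.23 to 24.5) for MT-TS2 and 14.7 (5.45 to 55.9) for MT-TL2. For L996 against RP11 it was 2.00 (1.59 to 2.54), 4.79 (2.62 to 9.46) and 1.04 (0.719 to 1.52). In that comparison MT-TH and MT-TL2 passed the filter through both groups, and neither was called. Their log2 fold changes were 0.98 (SE 0.33, edgeR adjusted p = 0.0532) and 0.05 (SE 0.31, edgeR adjusted p = 0.926).

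No test is given for this row against PC3. MT-TH and MT-TL2 passed the filter on low counts, at least 10 counts in a library of median size, through the plasmid group alone in both comparisons with PC3, and MT-TS2 did so in L996 and was not tested in RP11. MT-TS2 passed through L996 alone against RP11 as well. L996 replicate 1 was the highest library for each of the 3 genes, and the other L996 libraries were also above every PC3 library.

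MT-TC and MT-TY lie between MT-TN and MT-CO1. MT-TC stood at 52.9, 35.5 and 28.0 CPM in PC3, 136, 97.5 and 103 CPM in L996, and 139, 118 and 133 CPM in RP11. MT-TY stood at 10.4, 6.10 and 2.65 CPM in PC3, 18.4, 32.0 and 32.7 CPM in L996, and 40.6, 40.4 and 37.4 CPM in RP11. Both genes were lower in PC3 than in any other library. The log2 fold change of MT-TC was 1.53 in L996 (SE 0.21, edgeR adjusted p = 0.000417) and 1.74 in RP11 (SE 0.26, edgeR adjusted p = 0.016) against PC3. That of MT-TY was 2.12 in L996 (SE 0.42, edgeR adjusted p = 0.00915) and 2.63 in RP11 (SE 0.43, edgeR adjusted p = 0.021).

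With a library left out, several of these calls were lost while the fold change stayed of similar size. Without L996 replicate 1 the log2 fold change in L996 was 1.37 for MT-TC (adjusted p = 0.0523) and 2.34 for MT-TY (adjusted p = 0.0543). That of MT-TY was 2.09 without PC3 replicate 2 (adjusted p = 0.058) and 1.98 without L996 replicate 3 (adjusted p = 0.0987). In RP11 both calls were lost without PC3 replicate 2 and without each of the RP11 replicates, with an adjusted p of up to 0.0933. The log2 fold changes there were 1.68 to 1.81 for MT-TC and 2.60 to 2.67 for MT-TY. The call of MT-TY in L996 was also lost with no filter on low counts (adjusted p = 0.132), and with the replicate block it was lost in L996 (adjusted p = 0.17) and in RP11 (adjusted p = 0.0564).

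MT-TN (asparagine), which is 31 bases from MT-TC on the same strand, moved the other way. It stood at 210, 159 and 157 CPM in PC3, 86.6, 134 and 136 CPM in L996, and 153, 115 and 142 CPM in RP11. It fell by 0.56 in L996 against PC3 (SE 0.17, edgeR adjusted p = 0.0304), and RP11 against PC3 gave -0.36 (SE 0.17, edgeR adjusted p = 0.254). The fall was 0.38 without L996 replicate 1 (adjusted p = 0.0619), and the call was also lost without each PC3 replicate and with a GC offset.

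MT-TP, on the minus strand next to the control region, had 37.1, 41.4 and 36.1 CPM in PC3, 52.1, 31.6 and 36.9 CPM in L996, and 29.3, 25.4 and 28.6 CPM in RP11. The RP11 libraries were the lowest. RP11 fell by 0.46 against PC3 on the log2 scale (SE 0.08, edgeR adjusted p = 0.000295, lost when all 9 libraries were fitted together), and L996 was above RP11 by 0.53 (SE 0.16, edgeR adjusted p = 0.038, lost without each RP11 replicate and with a GC offset). L996 against PC3 gave 0.08 (edgeR adjusted p = 0.781).

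The remaining tRNA genes that were higher in L996 than in PC3 had low counts. MT-TV (valine), which lies between the rRNA genes, had 40, 23 and 23 counts in PC3, 41, 70 and 74 in L996, and 44, 52 and 41 in RP11, and L996 was higher by 1.06 (SE 0.32, edgeR adjusted p = 0.0338). MT-TG (glycine), between MT-CO3 and MT-ND3, had 43, 36 and 24 counts in PC3 and 61, 62 and 64 in L996, and was higher by 0.80 (SE 0.26, edgeR adjusted p = 0.0442). Both calls were lost in 4 to 7 alternatives, among them without PC3 replicate 2, PC3 replicate 3 and L996 replicate 3.

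MT-TI (isoleucine) had 2 to 7 counts in PC3 and 10 to 20 in L996. MT-TM (methionine), which touches MT-ND2, had 5 to 7 counts in PC3 and 11, 13 and 38 in L996. Both passed the filter through L996 alone against PC3, and no test is given there. In RP11, MT-TI had 9, 13 and 0 counts and MT-TM had 8, 16 and 11. L996 against RP11 gave 0.96 for MT-TI (edgeR adjusted p = 0.335) and 0.69 for MT-TM (edgeR adjusted p = 0.366), and neither was called.

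The other tRNA genes were not called in any comparison. MT-TL1 (leucine, UUR codons), next to MT-RNR2, stood at 16.7 to 17.9 CPM in PC3, 11.2 to 16.4 CPM in L996 and 14.7 to 16.6 CPM in RP11. MT-TT (threonine) was at 5.35 to 9.96 CPM over all libraries, and MT-TE (glutamate), MT-TR (arginine), MT-TD (aspartate) and MT-TS1 (serine, UCN codons) had 3 to 46 counts per library. MT-TF (phenylalanine), MT-TQ (glutamine), MT-TW (tryptophan), MT-TA (alanine) and MT-TK (lysine) had 0 to 10 counts per library and were not tested.

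**Figure D4:**
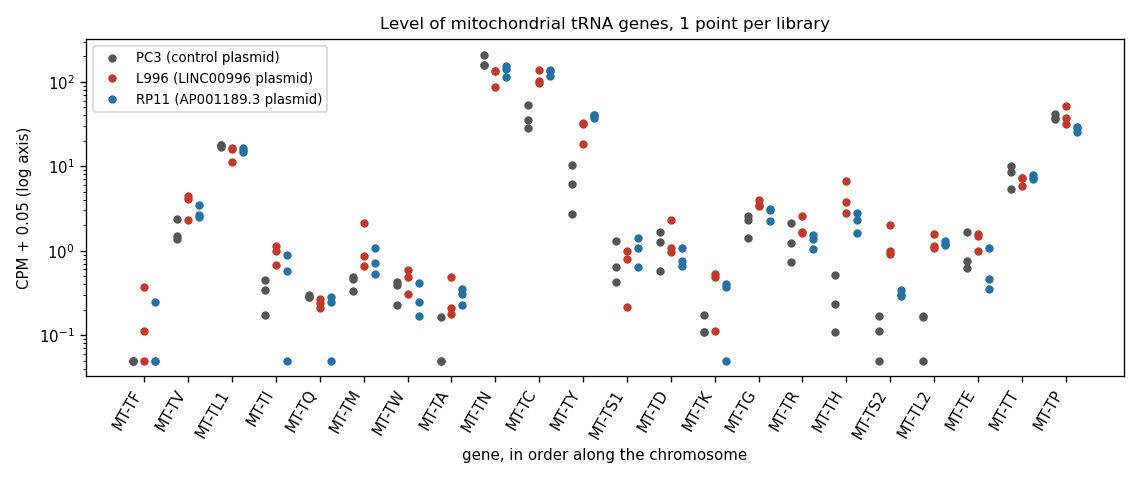
Level of the 22 tRNA genes in CPM plus 0.05 on a log axis (vertical), in chromosome order (horizontal), with 1 point per library. MT-TN and MT-TC have the highest means in each group, the grey PC3 points lie below the others for MT-TC, MT-TY, MT-TH, MT-TS2 and MT-TL2, and the blue RP11 points lie lowest for MT-TP.

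The next question was which genes changed their share of the MT counts, apart from the rise of the chromosome's total in L996. With the MT total as library size, 8 MT genes were higher and 7 lower in L996 against PC3, beside 39.4% of all genes called on this scale, 2.5% higher and 36.9% lower. In RP11 against PC3, 6 were higher and 3 lower, beside 17.7% of all genes, 9.06% higher and 8.65% lower. In L996 against RP11, 3 were higher and 9 lower, beside 35.3% of all genes, 1.67% higher and 33.7% lower. Of those higher, 3, 2 and 1 in these comparisons were tRNA genes that passed the filter through 1 group only and had to differ. On this scale the median log2 fold change of all genes tested was -0.32, -0.02 and -0.29 in these comparisons.

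MT-CO3 made up 5.89%, 5.39% and 4.90% of MT counts in PC3, 10.3%, 11.3% and 10.6% in L996, and 7.30%, 7.62% and 7.34% in RP11. Its share was higher by 0.99 on the log2 scale in L996 (SE 0.09, edgeR adjusted p = 3.78e-06) and by 0.46 in RP11 (SE 0.06, edgeR adjusted p = 2.01e-08) against PC3. MT-ATP6 made up 4.67% ± 0.478 (SD, n = 3) in PC3, 7.01% ± 0.265 (SD, n = 3) in L996 and 5.04% ± 0.267 (SD, n = 3) in RP11, and its share was higher by 0.58 in L996 against PC3 (SE 0.09, edgeR adjusted p = 0.000296). MT-ND3 made up 0.869%, 0.833% and 0.732% in PC3, 1.69%, 1.03% and 1.08% in L996, and 0.997%, 0.923% and 0.961% in RP11. Its share was higher by 0.64 in L996 (SE 0.17, edgeR adjusted p = 0.0127) and by 0.24 in RP11 (SE 0.07, edgeR adjusted p = 0.0048) against PC3. L996 replicate 1 was the highest library, and without it the rise in L996 was 0.38 (edgeR adjusted p = 4.95e-06). Without PC3 replicate 3 both calls of MT-ND3 were lost, at 0.57 in L996 (adjusted p = 0.0543) and 0.18 in RP11 (adjusted p = 0.0626).

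The genes whose share fell in L996 against PC3 included some of the most abundant. On the scale of the library, MT-ND4, MT-RNR2 and MT-ND1 gave log2 fold changes of 0.05, 0.07 and 0.03, and MT-ND4L gave -0.13. None of them was called on that scale (edgeR adjusted p = 0.474 to 0.842), so these are falls of a share. Of the genes whose share fell, only MT-TN was also called lower on the scale of the library. MT-ND4 made up 12.3% ± 0.396 (SD, n = 3) of MT counts in PC3 and 10.2% ± 0.162 (SD, n = 3) in L996, a fall of 0.28 on the log2 scale (edgeR adjusted p = 0.0104). MT-RNR2 fell from 14.9% ± 0.466 (SD, n = 3) to 12.4% ± 0.940 (SD, n = 3), by 0.26 (edgeR adjusted p = 0.0227). The share of MT-ND1 fell by 0.30 (edgeR adjusted p = 0.0102) and that of MT-ND4L by 0.46 (edgeR adjusted p = 0.00954), and MT-TL1, MT-TN and MT-TT were the others. The call of MT-RNR2 was lost without each PC3 replicate (adjusted p = 0.0573 to 0.113), that of MT-ND1 without PC3 replicate 1 (0.0728), that of MT-ND4L without PC3 replicate 3 (0.0716) and that of MT-ND4 without L996 replicate 2 (0.0599).

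MT-CO1 took the largest share in every library, 31.4%, 31.7% and 32.4% in PC3, 30.4%, 28.7% and 28.7% in L996, and 30.04%, 30.3% and 31.2% in RP11. Its share was not called in any comparison. In RP11 against PC3 the share of MT-ND4L fell by 0.60 (SE 0.07, edgeR adjusted p = 1.66e-11), and the genes called were the same 9 on the scale of the library and of the MT total. As classes, mRNAs made up 82.7% ± 0.818 (SD, n = 3) of MT counts in PC3, 85.4% ± 1.30 (SD, n = 3) in L996 and 82.1% ± 1.42 (SD, n = 3) in RP11. For rRNAs the values were 16.8% ± 0.729, 14.1% ± 1.30 and 17.2% ± 1.37 (SD, n = 3 each), with L996 apart from both other groups (exact permutation p = 0.1 each).

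**Figure D5:**
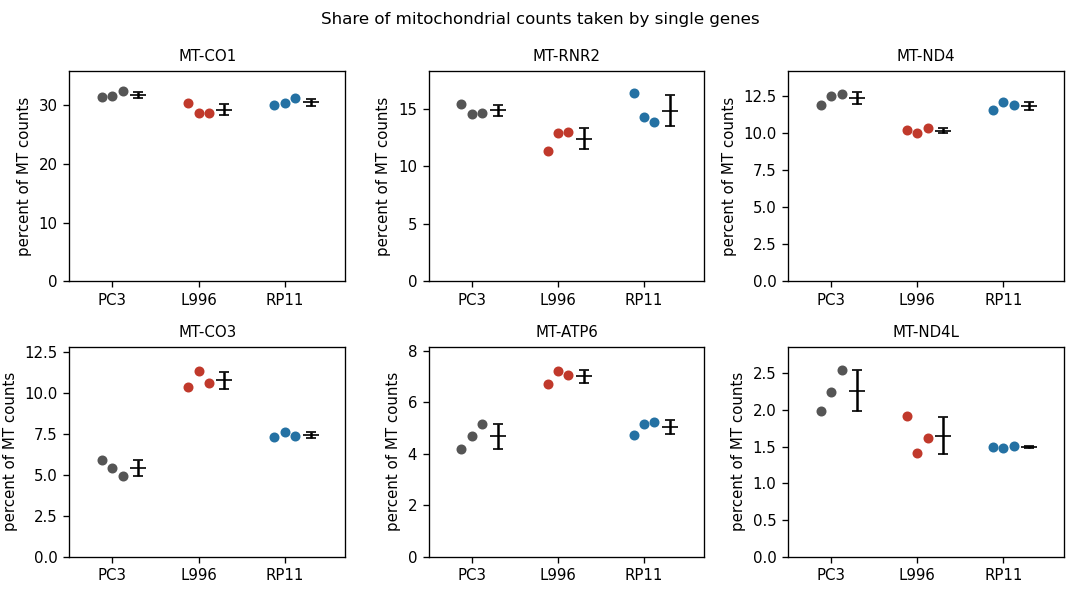
Percent of MT counts (vertical axes, from 0) taken by MT-CO1, MT-RNR2, MT-ND4, MT-CO3, MT-ATP6 and MT-ND4L, with 1 point per library and the mean ± SD of 3 libraries in black. MT-CO3 rises from a mean of 5.39% in PC3 to 7.42% in RP11 and 10.7% in L996, MT-ND4 and MT-RNR2 are lower in L996, and MT-ND4L has its lowest mean in RP11 (1.49%).

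Nuclear genes supply all proteins that copy, transcribe and process mitochondrial DNA and RNA. Of 61 such genes, all tested, 9 were higher and 0 lower in L996 against PC3, 2 higher and 6 lower in RP11 against PC3, and 11 higher and 0 lower in L996 against RP11. Of all genes, 10.7% were higher and 11.6% lower in L996 against PC3, 11.4% higher and 8.49% lower in RP11 against PC3, and 9.38% higher and 12.1% lower in L996 against RP11. The median log2 fold changes of the list were 0.11, -0.08 and 0.15.

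In L996 against PC3 the smallest adjusted p among those that rose belonged to SSBP1, the single-stranded DNA binding protein (0.60, edgeR adjusted p = 0.00116). REXO2, which degrades short RNAs (0.63, edgeR adjusted p = 0.00134), and the topoisomerase TOP1MT (0.73, edgeR adjusted p = 0.0097) came next. In RP11 against PC3, TOP1MT rose by 0.54 (edgeR adjusted p = 0.000704) and MRM1, which methylates rRNA, by 0.48 (edgeR adjusted p = 0.0072). LRPPRC, which binds and stabilises mitochondrial mRNAs, fell by 0.29 there (edgeR adjusted p = 0.000356), PTCD3 of the small ribosomal subunit fell by 0.30 (edgeR adjusted p = 0.000556) and PRIMPOL, a primase and polymerase, fell by 0.52 (edgeR adjusted p = 0.00586).

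In L996 against RP11, TFB2M, a factor for the start of transcription, was higher by 0.59 (edgeR adjusted p = 0.00237), with REXO2 at 0.51 (edgeR adjusted p = 0.00369) and SSBP1 at 0.42 (edgeR adjusted p = 0.0127). The mitochondrial RNA polymerase POLRMT gave -0.06 in L996 and -0.00335 in RP11 against PC3, and TFAM, which packs and activates mitochondrial DNA, gave 0.11 and -0.11. The elongation factor TEFM gave -0.15 in both, and SLIRP, the partner of LRPPRC, gave 0.05 and -0.30. None of these 4 was called in any of the 3 comparisons, with an edgeR adjusted p from 0.0601 to 0.993.

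Nuclear copies of mitochondrial sequence can share reads with MT genes. Of 407 such genes in the table, 3 had a mean of 10 counts or more, all on chromosome 1 of GRCh38. MTND2P28 (chr1:629640-630683) had 2399 to 3576 counts per library, MTATP6P1 (chr1:633696-634376) had 2046 to 4847 and MTCO1P12 (chr1:631074-632616) had 322 to 706. All copies together had 0.523% to 0.772% as many counts as the MT genes. Between L996 and PC3, MTATP6P1 gave a log2 fold change of 0.36 (edgeR adjusted p = 0.434), below the 0.92 of MT-ATP6. It had 2046 counts in L996 replicate 1 and 4276 and 4847 in the other L996 libraries, and without replicate 1 it was higher in L996 by 0.67 (edgeR adjusted p = 6.22e-09). MTCO1P12 rose by 0.69 (edgeR adjusted p = 0.00271), above the 0.21 of MT-CO1. MTND2P28 gave -0.00886 (edgeR adjusted p = 0.96) beside 0.38 for MT-ND2. Between RP11 and PC3 all 3 copies were called. MTATP6P1 fell by 0.27 (edgeR adjusted p = 0.00373, lost without PC3 replicate 2 and when all 9 libraries were fitted together) beside 0.13 for MT-ATP6, MTND2P28 fell by 0.27 (edgeR adjusted p = 0.00156, lost with all 9 libraries) beside 0.06 for MT-ND2, and MTCO1P12 rose by 0.53 (edgeR adjusted p = 0.000118) beside -0.04 for MT-CO1. Between L996 and RP11, MTND2P28 was higher by 0.26 in L996 (edgeR adjusted p = 0.0434), a call lost without L996 replicate 2 or 3 and without each RP11 replicate. The call was also lost with the replicate block (adjusted p = 0.0519) and with no filter on low counts (adjusted p = 0.11). MTATP6P1 gave 0.63 (edgeR adjusted p = 0.177), and 0.94 without L996 replicate 1 (edgeR adjusted p = 4.52e-15), and MTCO1P12 gave 0.15 (edgeR adjusted p = 0.402). Counts of such near-identical copies are uncertain, since the handling of reads that match several places was not given in the sources used here.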

How the data were processed

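RNA-seq of 9 A549 libraries was used. The deposited values are raw counts of reads per gene. Per the labels, the submitters' processing notes name HISAT2 2.0.5, featureCounts 1.5.0-p3 and GRCh38, and mRNA was selected on poly-T beads. The deposited FPKM values were not used. MT coordinates equal GENCODE 29 for 37 of 37 genes, and sequences were read from its transcripts. Genes passing filterByExpr were tested in edgeR 4.0.16 (R 4.3.3) with TMM and the robust quasi-likelihood test, on the 6 libraries of each comparison, with Benjamini-Hochberg adjustment over all genes tested. Standard errors were the log2 fold change over the root of F. CPM used TMM factors of all 9 libraries. Shares and ratios were compared by two-sided exact permutation tests. The alternatives were DESeq2 1.42.0, other scalings and filters, all 9 libraries, a replicate block, a gene-length offset and leaving out each library, and a GC offset was added after seeing the data. Named genes were the 37 members, with full statistics where called and not passed through 1 group only, 61 nuclear genes of mitochondrial gene expression (by name the 3 smallest adjusted p per direction and 6 set genes) and the 3 most counted nuclear copies. Members and lists were chosen with earlier results of these data known.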

Additional observations from a re-analysis of the deposited data

How the results depend on the processing

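Of the calls of single MT genes, leaving out genes that passed the filter through 1 group only, 4 of 14 in L996 against PC3 (MT-CO2, MT-CO3, MT-ATP6 and MT-CYB), 2 of 7 in RP11 against PC3 (MT-CO3 and MT-ND4L) and 4 of 11 in L996 against RP11 (MT-CO2, MT-CO3, MT-ATP6 and MT-ND6) held under every alternative that gave a value. With each library left out in turn, the calls among these genes ran from 7 to 11, 3 to 9 and 7 to 16. With the genes that had to differ included, which gives 19, 9 and 12 calls with all libraries, they ran from 10 to 16, 5 to 11 and 8 to 17. The 19 fell to 12 without PC3 replicate 1, 10 without PC3 replicate 2, 12 without PC3 replicate 3 and 12 without L996 replicate 3, and the 9 to 5 without RP11 replicate 1. Relative to the MT total, where they were 15, 9 and 12, the counts ran from 12 to 17, 7 to 12 and 4 to 12, and the last fell to 5 without RP11 replicate 1 and 4 without RP11 replicate 3. Without the genes that had to differ, these 12, 7 and 11 calls ran from 9 to 13, 5 to 10 and 4 to 11. With each library left out, the median log2 fold change without them ran from 0.25 to 0.42, -0.03 to 0.04 and 0.27 to 0.37. With them it ran from 0.36 to 0.49, -0.01 to 0.07 and 0.29 to 0.39. With a gene-length offset the median without them was 0.25 in L996 against PC3 and -0.14 in RP11 against PC3. With them it was 0.31 and -0.0865. With a GC offset, chosen after seeing the data, the median in RP11 against PC3 was 0.07 without them and 0.10 with them. With library size alone it was 0.41 without them and 0.42 with them in L996 against RP11. The cause was not tested. The difference in MT share of library counts ran from 1.46 to 1.71 points for L996 against PC3, 1.48 to 1.72 for L996 against RP11, and -0.0892 to 0.110 for RP11 against PC3, where it turned without RP11 replicate 1 (0.0285), RP11 replicate 2 (0.00296) or PC3 replicate 2 (0.110). MT-ATP8 in L996 against PC3 ran from -0.22 to 1.21.

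Same-numbered samples showed at most a weak pairing, with deviations from the group means that correlated at -0.02 to 0.15. The main test did not pair them. With the replicate block, 16, 10 and 14 MT genes were called in L996 against PC3, RP11 against PC3 and L996 against RP11, and 14, 11 and 13 relative to the MT total. Without the genes that had to differ these were 11, 8 and 13, and 10, 9 and 12 relative to the MT total. The block ended the calls of MT-CO1, MT-TN and MT-TY in L996 against PC3 and of MT-TY in RP11 against PC3, and added MT-ATP6 and MT-TN there and MT-TH and MT-TY in L996 against RP11. The medians with the block were 0.46, 0.02 and 0.36, and 0.36, 0.01 and 0.35 without the genes that had to differ. Counts under 10 per library, as in the row from MT-TH to MT-TL2 in PC3, limit the precision of the tRNA genes.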
